A study of Mus musculus with 4 samples.

Results

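The genes described here encode the machinery that takes cytoplasm into autophagosomes, the proteases of the lysosome and the proton pump that acidifies it. They were chosen by symbol: every Atg gene with a number, every cathepsin (Cts followed by 1 letter), every subunit gene of the vacuolar proton pump (Atp6v0 and Atp6v1), and Lamp1, Lamp2, Sqstm1, Becn1, Ulk1, Map1lc3a, Map1lc3b, Gabarap, Gabarapl1 and Gabarapl2. This gave 67 of the 21504 gene symbols measured, of which 54 reached 1 FPKM (a fragment count scaled by the length of the transcript and the size of the library) in at least 1 library. By role they are 25 autophagy genes, 2 LAMP genes, 18 cathepsins and 22 proton pump subunits, of which 24, 2, 11 and 17 reached 1 FPKM. Tfeb, which the rule also names, was not analysed here.

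RNA was sequenced from lenses of C57BL/6 mice that all carried an alpha A crystallin transgene. CRYAAN101D animals expressed the deamidated form of the protein (N101D) and CRYAAWT animals the WT form, and the lines are called N101D and WT. Lenses of 2 months and of 4 months gave 1 library each per line, 4 in all, with no replicates. The promoter of the transgenes, the sex of the animals and the number of animals or lenses behind a library are not given in the labels, and no transgene-free group was analysed here. The design asks how the lines differ at each age, and the difference with age in each line follows from it.

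Autophagy wraps cytoplasm, protein aggregates or organelles in a double membrane and delivers them to the lysosome. A kinase complex around ULK1 starts the process, a lipid kinase complex with Beclin 1 marks the membrane, conjugation enzymes attach ATG8 family proteins to its lipid, and receptors such as p62 (Sqstm1) tie cargo to ATG8. In the lysosome, cathepsins digest the delivered protein at an acid pH that the proton pump maintains, with its V0 sector in the membrane and its V1 sector on the cytoplasmic side. Lens fiber cells lose their organelles as they mature and keep their proteins for life, while the lens epithelium retains lysosomes.

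The lens label was checked against marker genes. The summed FPKM of the 9 fiber markers with a value, crystallins among them, lay between 126978 and 178767, and that of 8 epithelial markers between 246 and 336. Of the epithelial sum Cdkn1c alone held 89.7 to 119 FPKM, and whether it marks epithelium alone was not tested. The WT libraries held about 49.5 M fragments at 2 months and 35 M at 4 months, and the N101D libraries 24.5 M and 53.2 M, as recovered from steps in their low FPKM values. The N101D library of 2 months stood apart from the other 3 in more than depth. Summed markers of pigmented tissue were at 44.5 FPKM in it against 359 to 442 in the others, those of connective tissue at 4.999 against 80.8 to 139, and those of vessels at 1.75 against 9.40 to 9.996. Its Xist, the RNA of the inactive X chromosome, was at 12.9 FPKM against 0.0744 in WT at 2 months (4-month values missing). Y-linked Ddx3y was at 0.303 against 5.51 to 10.03 and Eif2s3y at 0.122 against 7.32 to 11.6. Kdm5d was at 0.0690 against 1.94 to 2.26 and Uty at 0.0367 against 1.55 to 2.46. Where that library is compared, genotype or age cannot be told apart from the sex of the animals, which the labels do not give. Results that rest on that library are set beside the WT age comparison and the 4-month genotype comparison, which do not use it but share the WT library of 4 months. That library stood apart too: its summed markers of retina and neurons were at 758 FPKM against 423 to 468 in the others, and its blood markers at 45.6 against 122 to 349. Between the lines at 4 months all 10 retina and neuron markers were lower in N101D (median -0.70), all 5 blood markers higher (median 1.34, 4 of them 2-fold) and all 6 connective tissue markers higher (median 0.64). With age in WT the retina and neuron markers were higher in 10 of 10 (median 0.76) and the blood markers lower in 5 of 5 (median -2.77). The part of these tissues in the differences below was not tested. In RNA from whole lenses, fewer cells of a type and less RNA per cell cannot be told apart.

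The transcription factor TFEB and its relatives are known to bind the element TCACGTGA, which contains the E-box CACGTG, in promoters of lysosomal genes. RefSeq promoters (build GRCm38.p6, from 250 bases before to 50 after the start of transcription) were found for 52 of the 67 genes, 58 promoters in all. TCACGTGA occurred in 6 of the 58, or 10.3%, against 0.974% of the 32851 promoters of the whole table. CACGTG occurred in 13 of the 58, or 22.4%, against 7.15%. Both motifs read the same on either strand, every TCACGTGA is also counted as a CACGTG, and a match describes letters in this window and no binding. The 6 promoters with TCACGTGA are shown because they cover 3 of the roles, conjugation, cathepsins and pump; the motif is in capitals, the rest runs 5′ to 3′ on the strand of the gene and ends at most 30 bases past the start:
Atg3: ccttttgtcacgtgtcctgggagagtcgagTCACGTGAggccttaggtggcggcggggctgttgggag
Ctsa: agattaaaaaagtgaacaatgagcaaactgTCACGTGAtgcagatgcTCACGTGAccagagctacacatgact
Ctsd: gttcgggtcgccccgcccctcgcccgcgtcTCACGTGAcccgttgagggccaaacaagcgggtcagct
Atp6v0d1: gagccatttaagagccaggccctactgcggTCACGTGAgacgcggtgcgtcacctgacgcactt
Atp6v0e: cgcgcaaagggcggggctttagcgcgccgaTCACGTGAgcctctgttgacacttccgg
Atp6v1a: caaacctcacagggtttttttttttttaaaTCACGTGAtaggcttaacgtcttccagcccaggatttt

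On GRCm38.p6 these windows lie at chr16:45158727-45158794 (plus strand, Atg3), chr2:164833730-164833802 (plus, Ctsa), chr7:142387889-142387956 (minus, Ctsd), chr8:105566035-105566098 (minus, Atp6v0d1), chr17:26676368-26676425 (plus, Atp6v0e) and chr16:44139354-44139421 (minus, Atp6v1a). Ctsa, the protective protein of lysosomal galactosidase and sialidase, held the motif at 2 places, and its copies began 13 bases before and 4 bases after the first transcribed base. At 2 months the difference in log2(FPKM + 1) between N101D and WT was -0.55 for Ctsa and -0.54 for Ctsd. It was -0.38 for Atp6v1a, -0.32 for Atp6v0d1 and -0.09 for Atg3, and 0.49 for Atp6v0e alone. For Atp6v0e it was 0.04 when libraries were scaled to equal totals without the crystallins. As deposited, 64.0% of all genes were lower in N101D at 2 months.

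Across all 54 genes the differences between libraries were small, and the cathepsins held the exceptions. Differences are on the log2(FPKM + 1) scale, on which those of weakly expressed genes come out too small. Where values come in pairs, N101D is given before WT. A 2-fold difference means 1 or more on that scale in either direction. At 2 months 3 genes were at least 2-fold lower in N101D than in WT (Ctss, Ctsh and Ctsc) and 0 were at least 2-fold higher. Of all 11474 genes compared there, 3.69% were 2-fold lower and 0.593% 2-fold higher. At 4 months 0 of the 54 were 2-fold different in either direction, where 0.523% of all genes were 2-fold higher and 0.384% 2-fold lower in N101D. Between 2 and 4 months 0 of the 54 differed 2-fold in WT (0.769% of all genes higher and 0.603% lower at 4 months). In N101D 2 were 2-fold higher at 4 months, Ctss and Ctsh, and 0 were lower, against 5.32% and 1.28% of all genes. Each count over the 54 is close to its background share or below it and is not read as a result about the set.

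The median difference of the 54 genes was -0.14 between the lines at 2 months and -0.03 at 4 months, beside -0.09 and 0.03 for all genes. With age it was 0.05 in WT and 0.19 in N101D, beside -0.01 and 0.15. At 2 months 41 of the 54 were lower in N101D, where 64.0% of all genes were lower. That split depends on scaling: it was 53 of 54 when libraries were scaled to equal totals without the crystallins, which put the median of all genes at -0.46, and 32 of 54 after quantile normalization. In N101D 39 of 54 were higher at 4 than at 2 months, where 64.5% of all genes were higher. The count was 50 with equal totals and 30 with quantile normalization. Of the 24 autophagy genes 17 were lower in N101D at 2 months, 24 with equal totals and 10 with quantile normalization. As deposited these shares lie near those of all genes. After quantile normalization the median at 2 months was -0.08 for the 54 and 0.05 for all genes. For age in N101D it was 0.06 and -0.04. The counts under any scaling are not read as results about the set. The sign of the difference between the lines was opposite at the 2 ages for 28 of the 54 genes.

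**Figure D1:**
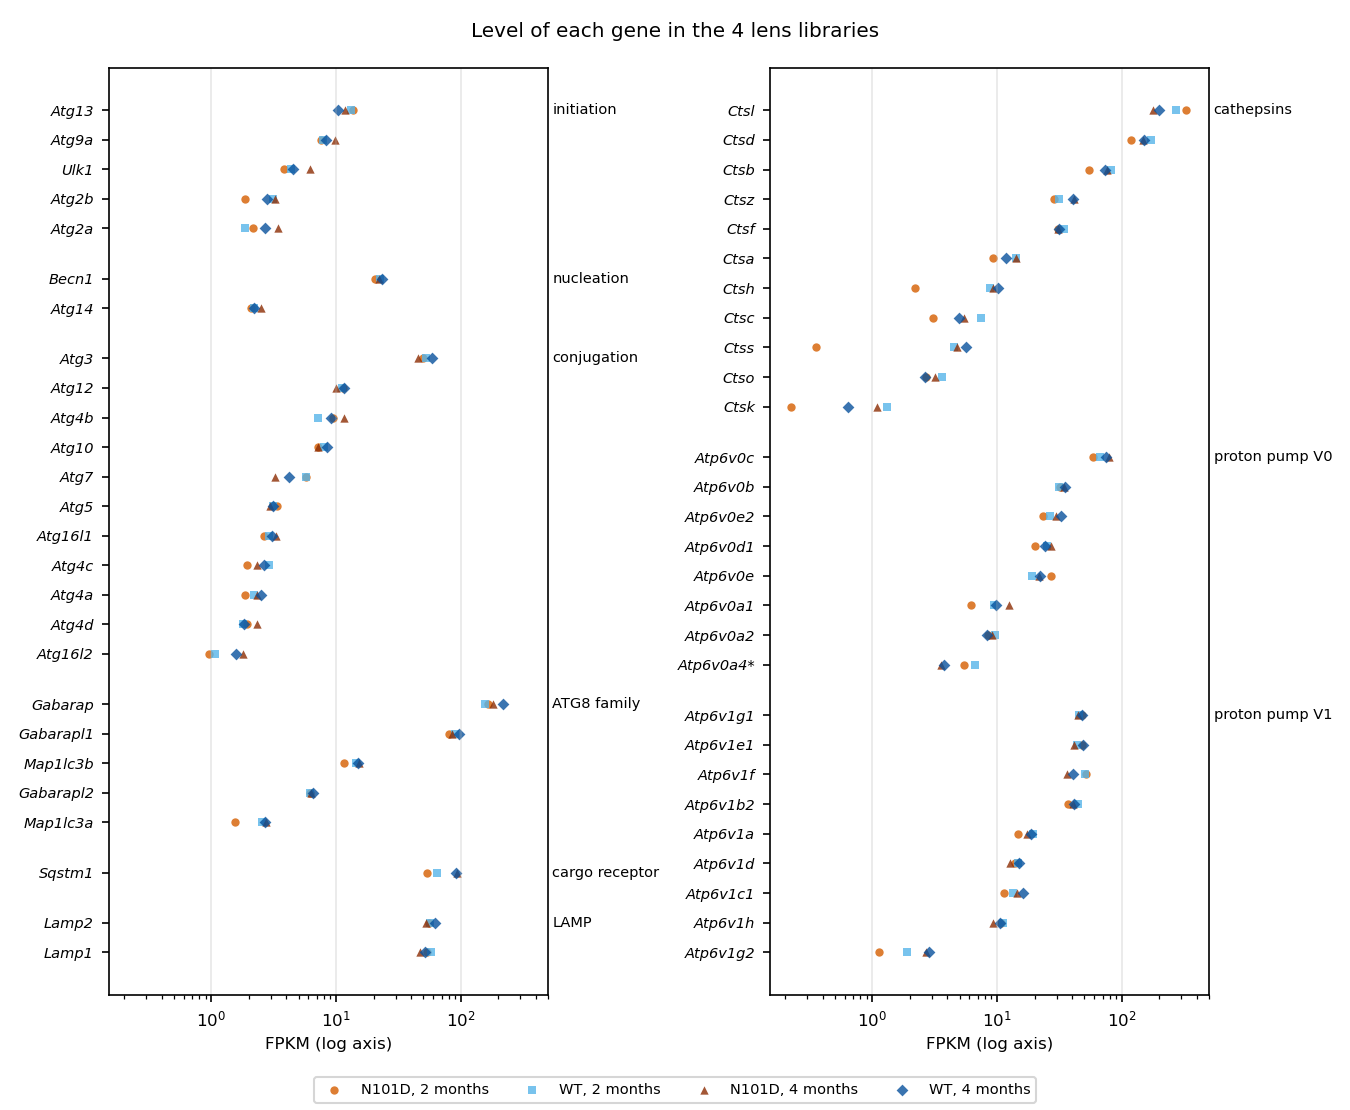
FPKM of the 54 genes that reached 1 FPKM, 1 row per gene grouped by role, with 1 point for each of the 4 lens libraries on a log axis (Atp6v0a4* is a row that also carries the symbol D630045J12Rik). For most genes the 4 points nearly coincide, while the N101D library of 2 months (circles) lies far to the left for Ctsh, Ctsc, Ctss and Ctsk.

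**Figure D2:**
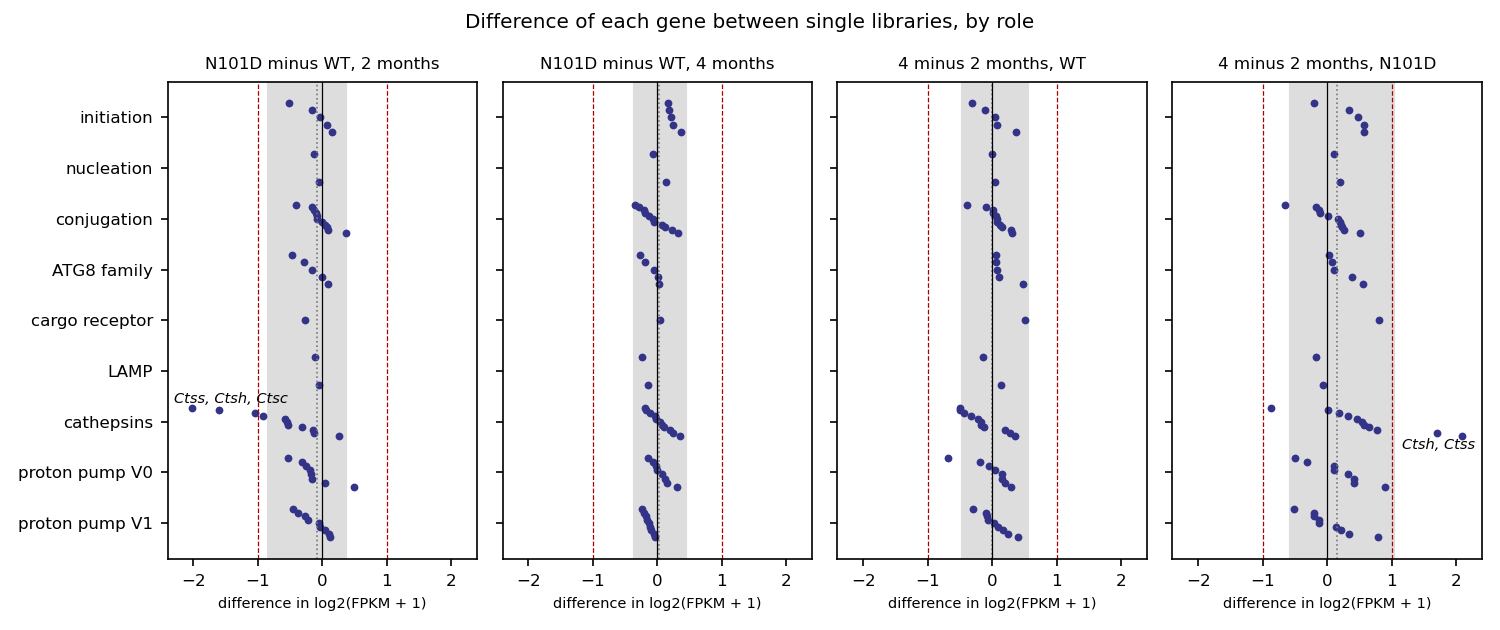
Differences in log2(FPKM + 1) between single libraries for the 54 genes, 1 point per gene, ordered by role; grey spans hold the 5th to 95th percentile of all genes compared, dotted lines are their medians and dashed red lines mark a 2-fold difference. Points beyond the dashed lines are cathepsins and appear in the comparisons that use the N101D library of 2 months.

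Among the 6 initiation genes, which cover the ULK1 complex, the lipid transfer protein ATG2 and the membrane protein ATG9, 5 reached 1 FPKM. Atg13, the scaffold of the ULK1 complex, was at 13.8 FPKM in 2-month N101D, 13.1 in 2-month WT, 11.9 in 4-month N101D and 10.4 in 4-month WT. Its level was lower at 4 months in both lines, with differences of -0.31 in WT and -0.20 in N101D, but with equal totals the difference in N101D was 0.24. Atg9a was at 7.59 and 7.85 FPKM in N101D and WT at 2 months and at 9.81 and 8.33 at 4 months, and its paralog Atg9b stayed between 0.00364 and 0.0410. Ulk1, the kinase itself, was at 3.81 and 4.38 FPKM at 2 months and at 6.14 and 4.52 at 4 months. The N101D library of 4 months was the highest for Ulk1, and the difference between the lines was 0.37 at 4 months against -0.16 at 2 months.

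The balance of the ATG2 pair differed between libraries. Atg2a was at 2.17 and 1.88 FPKM in N101D and WT at 2 months and at 3.42 and 2.72 at 4 months, and Atg2b at 1.87 and 3.13, then 3.26 and 2.80. Atg2b thus made up 62.6% of the pair in WT at 2 months and 46.3% in N101D, with 48.8% (N101D) and 50.8% (WT) at 4 months. At 4 months all 5 initiation genes were higher in N101D, by 0.16 to 0.37 with a median of 0.21, also under both scalings; 55.1% of all genes were higher there, and the retina, blood and connective tissue markers given above differed between the same libraries. At 2 months 2 were higher and 3 lower. Nucleation was level: Becn1, the Beclin 1 gene, was at 20.5 and 22.4 FPKM in N101D and WT at 2 months and at 22.1 and 23.2 at 4 months. Atg14, which directs that complex to autophagy, was at 2.08, 2.21, 2.52 and 2.20 in the same order.

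All 11 conjugation genes reached 1 FPKM, and Atg3 stood far above the others. Atg3, the E2-like enzyme that hands ATG8 to its lipid, was at 49.5 FPKM in 2-month N101D, 52.7 in 2-month WT, 45.7 in 4-month N101D and 58.6 in 4-month WT. At 4 months it was the lowest of the 54 genes in N101D relative to WT, at -0.35. Atg12, the ubiquitin-like partner of ATG5, was at 11.4 and 11.1 FPKM at 2 months and at 10.02 and 11.6 at 4 months. Atg7, the E1-like enzyme that activates both ubiquitin-like proteins, was at 5.71 and 5.76 FPKM at 2 months and at 3.25 (N101D) and 4.18 (WT) at 4 months. Both 4-month libraries were below both 2-month libraries for Atg7, with differences of -0.66 in N101D and -0.39 in WT.

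The ATG4 proteases trim ATG8 proteins and release them from lipid, and Atg4b was the most abundant of the 4. It was at 9.53 FPKM in 2-month N101D, 7.20 in 2-month WT, 11.6 in 4-month N101D and 9.03 in 4-month WT. Atg4b was higher in N101D at both ages, by 0.36 and 0.33, but with equal totals the difference at 2 months was -0.06. Its share of ATG4 FPKM was 62.5% in both N101D libraries, against 51.0% (2 months) and 56.4% (4 months) in WT. Atg4c was at 1.93 and 2.90 FPKM in N101D and WT at 2 months and at 2.34 and 2.66 at 4 months, so it was the lower in N101D each time, although with all rows of the symbol summed the difference at 4 months was 0.08. Atg4a was at 1.85 and 2.198, then 2.305 and 2.48, and Atg4d at 1.94 and 1.81, then 2.31 and 1.84. Neither varied much. Atg16l1, the scaffold that sets where conjugation happens, was at 2.62 and 2.88 FPKM at 2 months and at 3.27 and 3.07 at 4 months. Its paralog Atg16l2 was at 0.953 (N101D) and 1.06 (WT) at 2 months and at 1.79 and 1.56 at 4 months, and its share of the pair was 26.6% and 27.0%, then 35.3% and 33.8%. The remaining conjugation genes, Atg5 and Atg10, stayed between 2.96 and 8.43 FPKM.

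The ATG8 family was dominated by its GABARAP branch rather than by LC3. Gabarap was at 166 FPKM in 2-month N101D, 156 in 2-month WT, 180 in 4-month N101D and 217 in 4-month WT, and Gabarapl1 at 80.7 and 90.0, then 84.9 and 96.6. Gabarap made up 58.0% to 64.2% of the ATG8 FPKM and Gabarapl1 28.6% to 33.4%. Map1lc3b, which encodes the usual marker protein of autophagosomes, was at 11.6 and 14.4 FPKM at 2 months and at 15.3 and 15.02 at 4 months. Map1lc3a was at 1.55 and 2.54, then 2.74 and 2.70. Gabarapl2 was at 6.12 and 6.18, then 6.29 and 6.56, and hardly differed between libraries. The N101D library of 2 months was the lowest of the 4 for both LC3 genes. All 5 members were higher at 4 months than at 2 months in both lines, by 0.06 to 0.47 in WT and 0.03 to 0.55 in N101D, though after quantile normalization it was 4 of 5 in each. Of all genes, 48.5% were higher at 4 months in WT and 64.5% in N101D.

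Sqstm1, the p62 cargo receptor, had the largest age difference of the 54 genes when the smaller of the WT and N101D values is taken. It was at 53.3 FPKM in 2-month N101D, 64.1 in 2-month WT, 93.5 in 4-month N101D and 91.2 in 4-month WT. Both 4-month libraries lay above both 2-month libraries, by 0.50 in WT and 0.80 in N101D, and the sign held under every setting tried. The lines differed by -0.26 at 2 months and 0.04 at 4 months. The listed span of Sqstm1 (mm9 chr11:50013653-50048607) is shared with Mgat4b, so the authors' estimation may have divided reads between them.

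The LAMP proteins line the lysosomal membrane. Lamp1 was at 53.3 FPKM in 2-month N101D, 57.8 in 2-month WT, 47.0 in 4-month N101D and 52.0 in 4-month WT. Lamp2 was at 55.04 and 57.0, then 52.8 and 62.5. The genes were nearly equal in level, with Lamp2 at 49.6% to 54.6% of their sum. Both were lower in N101D at both ages, with differences of -0.11 and -0.14 for Lamp1 and of -0.05 and -0.24 for Lamp2, and lower under both scalings as a pair. A further Lamp2 row with the same listed span was at 10.9 and 15.1 FPKM at 2 months and 5.47 and 4.08 at 4 months. How reads were divided between the rows, and whether the library kit keeps strand, is not given in the sources used here.

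Cathepsin L had the highest level of all 54 genes at 2 months and, as deposited, was the 1 cathepsin of the 11 that was higher in N101D at that age. Ctsl (mm9 chr13:64464521-64471614), a cysteine protease, was at 324 FPKM in 2-month N101D, 271 in 2-month WT, 176 in 4-month N101D and 200 in 4-month WT. Both 2-month libraries were above both 4-month libraries, with differences of -0.43 (4 minus 2 months) in WT and -0.88 in N101D. Between the lines the difference was 0.26 at 2 months and -0.18 at 4 months, but with equal totals it was -0.21 at both ages. The share of Ctsl in all cathepsin FPKM was 56.5% and 43.0% at 2 months and 34.5% and 37.6% at 4 months.

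Ctsd, the main aspartic protease of the lysosome, was at 117 FPKM in 2-month N101D, 171 in 2-month WT, 148 in 4-month N101D and 151 in 4-month WT. The N101D library of 2 months was the lowest, at -0.54 relative to WT, and the lines differed by -0.03 at 4 months. A further Ctsd row with the same listed span held 4.14 to 6.85 FPKM. Ctsb, Ctsz, Ctsf, Ctsa and Ctso spanned 2.66 to 82.3 FPKM over the 4 libraries, and all 5 were lower in N101D at 2 months, with differences of -0.13 to -0.58. At 4 months their differences lay between -0.02 and 0.25.

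The 3 genes past 2-fold were proteases of lower level. Ctss (mm9 chr3:95330707-95360326), a cysteine protease known for processing antigen in macrophages and other antigen-presenting cells, was at 0.354 FPKM in 2-month N101D, 4.47 in 2-month WT, 4.77 in 4-month N101D and 5.60 in 4-month WT. Taking 1 transcript of 1355 bases, that is about 10 reads (95% Poisson interval 4.80 to 18.4, counting error only) against 265, 302 and 234, so the N101D library of 2 months stands alone and the other 3 are close to each other. The difference was -2.01 at 2 months and -0.19 at 4 months, and with age 2.09 in N101D and 0.27 in WT.

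Ctsh (mm9 chr9:89949104-90009658), an aminopeptidase of the same family, was at 2.20 FPKM in 2-month N101D, 8.73 in 2-month WT, 9.35 in 4-month N101D and 10.2 in 4-month WT. Again the N101D library of 2 months was alone at the low end, at -1.61 against WT, while the lines differed by -0.11 at 4 months. Its span is shared with Morf4l1. Ctsc (mm9 chr7:95426585-95459385), dipeptidyl peptidase I, which activates serine proteases of leukocyte granules, was at 3.09 and 7.46 FPKM at 2 months and at 5.43 and 4.98 at 4 months. Its difference was -1.05 at 2 months, -0.90 after quantile normalization, and 0.10 at 4 months; its age difference in WT was -0.50. Ctsk (mm9 chr3:95303177-95313291), the collagen-degrading protease of osteoclasts, lies next to Ctss and was at 0.221, 1.31, 1.09 and 0.634 FPKM in N101D and WT at 2 months and N101D and WT at 4 months. That is about 7, 88, 78 and 30 reads for a transcript of 1512 bases. Its difference was -0.92 at 2 months and 0.36 at 4 months. With a pseudocount of 0.1 FPKM these were -2.13 and 0.70, and after quantile normalization the difference at 2 months was -0.49.

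In all, 10 of the 11 cathepsins that reached 1 FPKM were lower in N101D at 2 months, with a median of -0.55, where 64.0% of all genes were lower. Among them Ctss and Ctsk, at 0.354 and 0.221 FPKM in that N101D library, passed the filter only through the other libraries. Without the filter 10 of all 18 cathepsins were lower and 3 higher. The count was 11 of 11 with equal totals, where the median of the 11 was -1.01 and that of all genes -0.46. After quantile normalization it was 10 of 11, with a median of -0.49 beside 0.05 for all genes. At 4 months 6 were higher and 5 lower with a median of 0.04 (8 and 3 after quantile normalization), and in WT 8 of 11 were lower at 4 than at 2 months with a median of -0.18. The summed FPKM of the cathepsins other than Ctsl was 249 in 2-month N101D, 359 in 2-month WT, 335 in 4-month N101D and 332 in 4-month WT.

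Markers of several other cell types, though not of all, were low in the same library. Of 10 macrophage and leukocyte markers with a row, the summed level was 0.811 FPKM in 2-month N101D, 7.83 in 2-month WT, 9.001 in 4-month N101D and 6.57 in 4-month WT. All 4 that reached 1 FPKM (Csf1r, Tyrobp, Fcer1g and Cd68) were lower in N101D at 2 months, 3 of them 2-fold. They were at 0.105 to 0.219 FPKM in that library and passed the filter only through the others. Their direction is thus partly set by the filter, which the summed level of all 10 does not use. Cd14 was at 0 in that library alone. All 14 pigmented tissue markers were lower there too, with a median of -1.78. The lens epithelial markers had a median of -0.97 at 2 months, with 5 of 8 lower and 4 of them 2-fold. The other 3 of the list, Foxe3, Cdh1 and Cdkn1c, were higher in that library than in WT, by 0.21, 0.39 and 0.33. Cdkn1c alone held 113 of the 246 FPKM of the list in that library. With equal totals all 8 were lower, where the median of all genes was -0.46. Blood markers were at 147 FPKM there, below 2-month WT at 349 but above the 122 (N101D) and 45.6 (WT) of 4 months, and retina and neuron markers differed from WT by a median of -0.11. Between the 4-month libraries the medians of the macrophage, pigmented and epithelial lists were 0.30, 0.05 and 0.06, beside the larger differences of the retina, blood and connective tissue lists given above. Their part in the cathepsin differences was not tested.

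**Figure D3:**
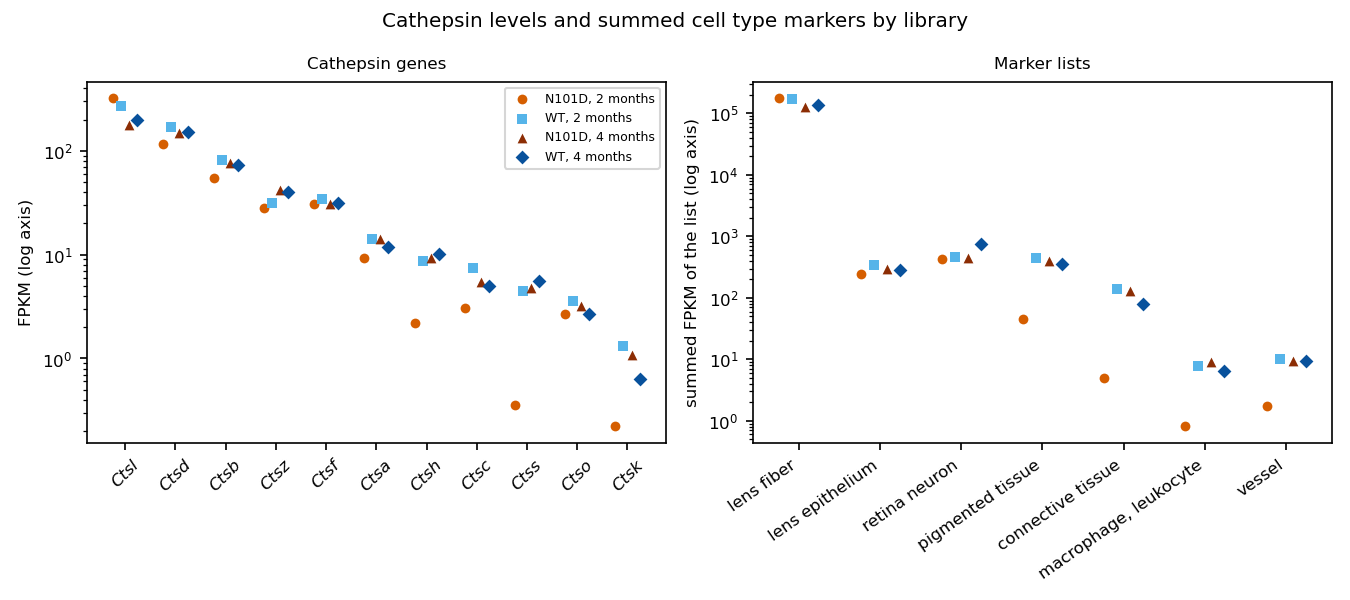
Left, FPKM of the 11 cathepsins that reached 1 FPKM in each of the 4 libraries; right, summed FPKM of 7 cell type marker lists in the same libraries, both on log axes. The N101D library of 2 months (circles) is the lowest for every cathepsin shown except Ctso and Ctsl, and the highest for Ctsl. It lies furthest below the others for Ctss, Ctsh, Ctsc and Ctsk. Among the lists it is the lowest for all but lens fiber, by the most for pigmented, connective, macrophage and vessel and by less for lens epithelium and retina.

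The other 7 cathepsins did not reach 1 FPKM in any library. Ctsj, Ctsm, Ctsq and Ctsr, members of a rodent cluster expressed in placenta, were at 0 in every library, as was Ctsg of neutrophil granules. Ctse reached 0.0795 FPKM in 1 library and Ctsw at most 0.0555.

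The proton pump subunits were expressed at similar levels in all libraries, with summed FPKM of 418 (N101D) and 439 (WT) at 2 months and 436 and 453 at 4 months. At 2 months 12 of 17 were lower in N101D with a median of -0.17, close to the 64.0% and the median of -0.09 for all genes. With equal totals 16 were lower, where the median of all genes was -0.46. After quantile normalization 10 were lower, where it was 0.05. In the V0 sector, Atp6v0c, the proteolipid of the rotor ring, was at 58.4 FPKM in 2-month N101D, 66.8 in 2-month WT, 78.4 in 4-month N101D and 74.7 in 4-month WT. Both 4-month libraries were above both 2-month libraries. Atp6v0b, another ring subunit, was at 32.1 and 31.4 FPKM at 2 months and at 34.6 and 35.1 at 4 months. Atp6v0d1, which couples ring and stalk, was at 19.97 and 25.1, then 26.9 and 24.3 and was lowest in N101D at 2 months, while Atp6v0d2 did not exceed 0.127.

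Subunit a, which carries the proton path and has paralogs that direct the pump to different membranes, differed in make-up between libraries. Atp6v0a1 was at 6.22 FPKM in 2-month N101D, 9.47 in 2-month WT, 12.4 in 4-month N101D and 9.82 in 4-month WT. It was lowest and highest in the N101D libraries, with a difference of 0.89 between them against 0.05 in WT, and the lines differed by -0.54 and then 0.31. The symbol has 6 further rows in the same span, each at most 2.68 FPKM. With all rows summed the lines differed by -0.37 and then 0.71, and the age difference in N101D was 1.17, past 2-fold. Equal totals with the reported row alone gave 1.31 for that age difference. Atp6v0a2, found on endosomes and Golgi, was at 8.44 and 9.63, then 9.14 and 8.31. The row that carries Atp6v0a4 together with D630045J12Rik, for which the genes cannot be told apart, was at 5.43 and 6.67 at 2 months and at 3.56 and 3.77 at 4 months. Both 4-month libraries were below both 2-month libraries, with differences of -0.69 in WT and -0.50 in N101D. Tcirg1, which encodes the a3 paralog and is no member by symbol, was at 0.694 and 1.10, then 1.65 and 1.12. With it included, a1 made up 29.9% (N101D) and 35.3% (WT) of subunit a FPKM at 2 months and 46.3% and 42.7% at 4 months, and the Atp6v0a4 row 26.1% and 24.8%, then 13.3% and 16.4%.

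The small subunit e was the member highest in N101D at 2 months. Atp6v0e was at 27.3 FPKM in 2-month N101D, 19.1 in 2-month WT, 21.8 in 4-month N101D and 22.03 in 4-month WT, a difference of 0.49 at 2 months (0.04 with equal totals) and -0.01 at 4 months. Its paralog Atp6v0e2 was at 23.5 and 26.4, then 29.5 and 32.7. Atp6v0e therefore made up 53.7% of the pair in N101D at 2 months and 40.3% to 42.5% in the other 3 libraries.

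In the V1 sector, which hydrolyses ATP, 1 paralog carried nearly all the signal of each subunit. Atp6v1e1 was at 47.6 FPKM in 2-month N101D, 43.7 in 2-month WT, 41.4 in 4-month N101D and 49.0 in 4-month WT, and Atp6v1e2 did not exceed 0.213. Atp6v1g1 was at 48.1 and 44.98, then 44.2 and 48.0. Atp6v1b2, the widely expressed form of subunit B, was at 36.7 and 44.6, then 40.4 and 41.4, and its paralog Atp6v1b1 did not exceed 0.0931. Atp6v1g2, a form known from neurons, was at 1.13 and 1.91 FPKM at 2 months and at 2.67 and 2.82 at 4 months. It was higher at 4 months by 0.39 in WT and 0.78 in N101D, and its share of subunit G was 2.296% and 4.08%, then 5.70% and 5.55%. Atp6v1g3 was at 0 throughout.

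Atp6v1f, a rotor subunit, was at 52.0 and 50.6 FPKM at 2 months and at 36.0 and 40.8 at 4 months, with age differences of -0.52 in N101D and -0.30 in WT. A further row of that symbol and span was at 19.1 and 16.7, then 10.5 and 13.4. Atp6v1c1 was at 11.3 and 13.3 FPKM at 2 months and at 14.5 and 16.05 at 4 months. Atp6v1c2 was at 0.0199, 0.0195 and 0.0142 in 3 libraries and at 0.756 in N101D at 4 months, where it made up 4.94% of subunit C; it stayed under 1 FPKM and its listed span is shared with Pdia6. Atp6v1a, Atp6v1d and Atp6v1h lay between 9.22 and 19.4 FPKM. At 4 months all 9 V1 genes that reached 1 FPKM were lower in N101D, with differences of -0.03 to -0.24 with a median of -0.13 (8 of 9 after quantile normalization), where 44.8% of all genes were lower. In the same comparison all 10 retina and neuron markers were lower (median -0.70) and all 5 blood markers higher (median 1.34), and their part in it was not tested. At 2 months 6 were lower and 3 higher, and the V0 genes were 4 and 4 at 4 months.

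**Figure D4:**
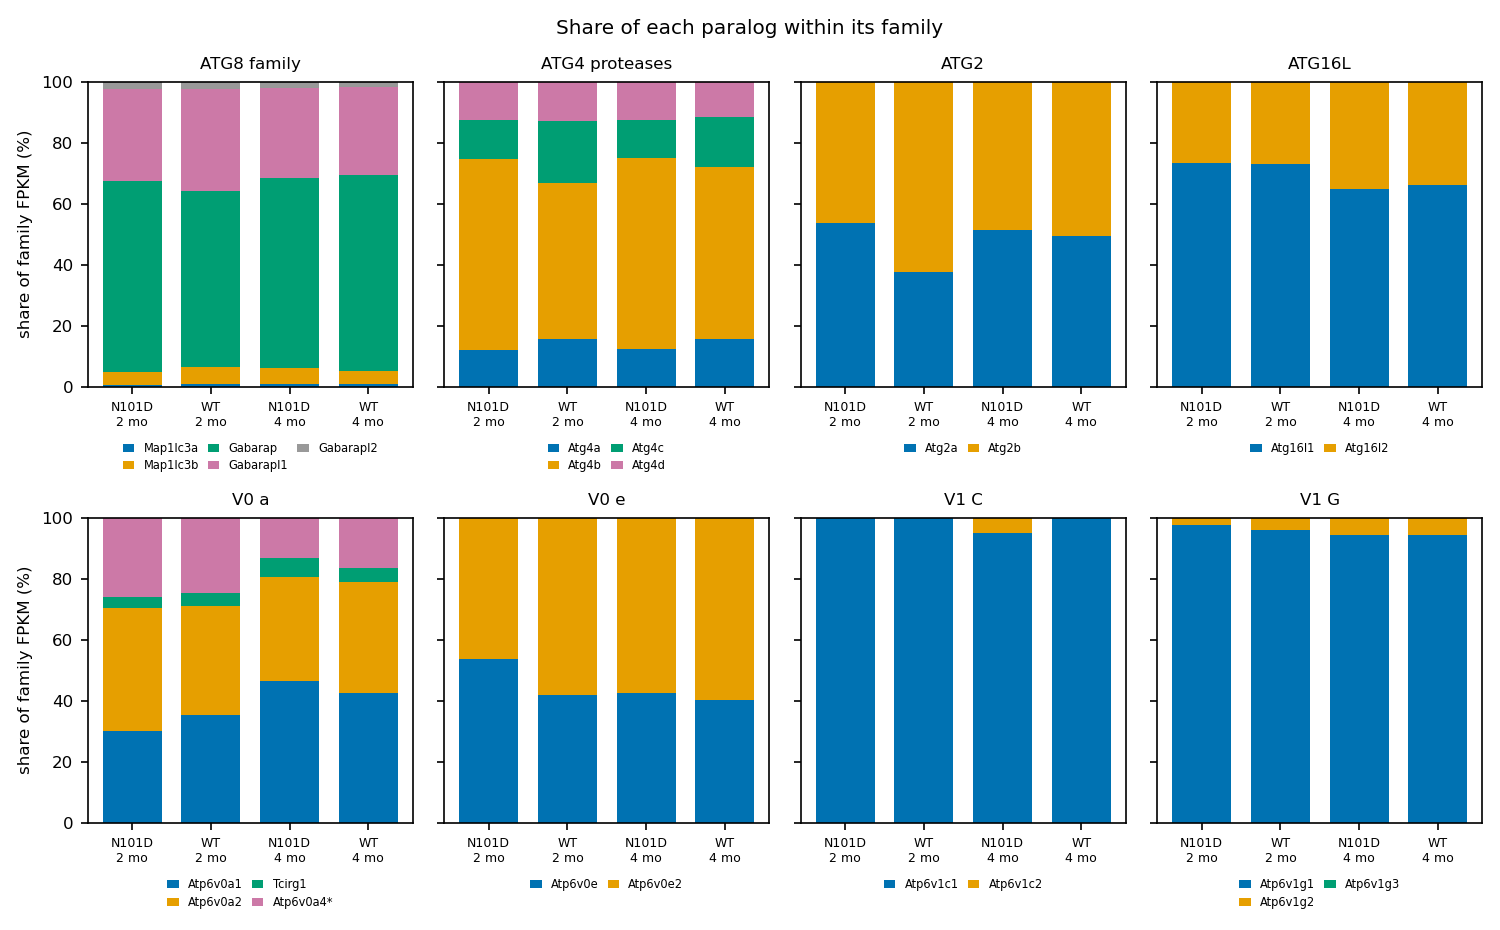
Share of each paralog in the summed FPKM of its family, for 8 families in the 4 libraries (stacked bars from 0 to 100%; Atp6v0a4* also carries D630045J12Rik). Gabarap and Gabarapl1 fill most of the ATG8 bars, Atp6v0e leads subunit e only in N101D at 2 months, and Atp6v0a1 has a larger share in both 4-month libraries than in both 2-month ones.

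The leading paralog was the same in all 4 libraries in 9 of 13 families. The exceptions were ATG2, LAMP, subunit a and subunit e.

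The 1 test the design allows is an additive model of age and genotype. It was fitted with limma to 11446 genes, with 1 residual degree of freedom and Benjamini-Hochberg adjustment over all of them. That degree of freedom is the change of the genotype difference between the ages. A difference seen at 1 age alone therefore also counts as error, and 0 genes passing does not show that the lines are alike. For genotype 0 genes passed an adjusted p of 0.05 (0% of those tested) and 132 had an unadjusted p under 0.05, of which 0 were among the 54. By unadjusted p, the gene nearest to the threshold among the 54 was Ctss. Its genotype difference was -1.10 ± 0.46 (SE), with a Benjamini-Hochberg adjusted p of 1.00 in limma. The lines differed in Ctss by -2.01 at 2 months and by -0.19 at 4 months, so the estimate describes neither age. For age 1 gene passed (Col4a3, 0.00874%) and 1064, or 9.30%, had an unadjusted p under 0.05. Among the 54, 0 passed and 6, or 11.1%, had an unadjusted p under 0.05: Sqstm1, Atp6v1g2 and Ctsz, higher at 4 months, and Ctsl, Atg7 and the Atp6v0a4 row, lower. By unadjusted p, the nearest to the threshold was Sqstm1, higher by 0.65 ± 0.17 (SE) at 4 months with a Benjamini-Hochberg adjusted p of 0.458 in limma. Age effects also rest on tables that appear to have been estimated separately for each age, since the status of 2788 rows differed between ages and that of 0 rows between the lines.

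Genes that work with the 54 were summarised by list, beside 64.0% of all genes lower in N101D at 2 months and 55.1% higher at 4 months. Of 32 other lysosomal hydrolases and activators that reached 1 FPKM, 29 were lower in N101D at 2 months with a median of -0.28. Lipa, the lysosomal acid lipase, was at 3.53 FPKM in 2-month N101D, 8.91 in 2-month WT, 8.32 in 4-month N101D and 7.10 in 4-month WT. At 4 months 23 of the 32 were higher in N101D with a median of 0.10. All 8 accessory pump genes that reached 1 FPKM were lower at 2 months (median -0.30) and 4 of 8 at 4 months. Lysosomal membrane proteins were lower at 2 months in 12 of 18 (median -0.24), other autophagy genes in 21 of 25 (-0.15), cargo receptors in 8 of 13 (-0.10) and nutrient or lysosome regulators in 11 of 18 (-0.10). The counts of 12 of 18, 8 of 13 and 11 of 18 are near the share of all genes. After quantile normalization 25 of 31 hydrolases, 5 of 7 accessory genes and 14 of 25 other autophagy genes were lower at 2 months. The median of all genes was then 0.05. With equal totals every gene of these lists was lower, where the median of all genes was -0.46. The rescaled lists of hydrolases, accessory genes, membrane proteins, cargo receptors and regulators held slightly fewer genes. Of 10 cathepsin inhibitors 3 reached 1 FPKM. Cst3, Cstb and Serpinb6a were higher in N101D at 2 months, by 0.04, 0.14 and 0.31, but with equal totals all 3 were lower (median -0.31). At 4 months all 3 were lower (median -0.25), and after quantile normalization 2 of 3. Cst3, which encodes cystatin C, was at 246 and 238 FPKM at 2 months and at 232 and 247 at 4 months, within the range of Ctsl. These lists were not tested, and the 2-month values rest on the library that stood apart.

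Of the 13 genes below 1 FPKM in every library, 6 were pump or autophagy paralogs and 7 were cathepsins. The listed spans of 27 of the 67 genes hold another symbol, and the values of these genes are uncertain where the authors' estimation divided reads.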

How the data were processed

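Total RNA from lenses was made into TruSeq libraries, per the labels' protocols. The authors deposited 1 table of FPKM per library; per the submitters' processing notes, they used build mm9 with Cuffdiff, Cufflinks 1.0.3, TopHat 1.2.0 and CASAVA 1, and the annotation is not given in the sources used here. Of 44597 rows per table, those of status FAIL (289 at 2 months, 488 at 4 months) were taken as missing; 35 rows with dates for symbols and 15488 without a symbol were left out. Each symbol took its row of highest mean FPKM. Depth was recovered from whole-read steps in low values: 92.3% to 97.1% of values per library lay no more than 0.05 from a whole number. At 1 FPKM, 1 kb of effective length rests on 24.5 reads in the shallowest library (95% Poisson interval 15.8 to 36.3) and 53.2 in the deepest (39.9 to 69.6), counting error only. Apart from approximate read numbers for Ctss and Ctsk, from 1 transcript length each, no counts were rebuilt, since rows hold several transcripts.

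Differences used a pseudocount of 1 FPKM, genes reaching 1 FPKM in at least 1 library and no further scaling. The test was limma 3.58.1 in R 4.3.3, tested on simulated data. Its p-values reflect no more than the spread among 4 libraries, which may be technical and takes in any change of the genotype difference with age. Gene lists used rows of the first and second block of the tables; 20828 rows of the third served for depth. Genes, lists and rules were chosen with earlier results of these data known. Full values are given for the 2 highest members of each role, members 2-fold different in any comparison, the 3 highest and 3 lowest of each comparison and families with paralogs, except members below 1 FPKM. Alternatives were another pseudocount (0.1), other filters (none, 5 FPKM), equal totals without crystallins, quantile normalization, other choices of rows or status, and no trend in limma's prior.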

Additional observations from a re-analysis of the deposited data

How the results depend on the processing

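Counts of 2-fold genes among the 54 changed with some settings. For the genes lower in N101D at 2 months the count was 3 as reported, 6 with equal totals without the crystallins and 1 with rows of status OK at both ages. For those higher at 4 months in N101D it was 2 as reported, 4 with a pseudocount of 0.1 FPKM, 7 with equal totals and 1 with rows of status OK, which leave out Ctss and Ctsc by construction. Ctsc at 2 months was at -0.90 with quantile normalization. The other 112 values of summary results included many counts of 0 that stayed at 0. The rest stayed within 1.5 times the count or, for medians, moved by less than 0.1 in log2. Such a small move could change the sign. The median of the 54 minus that of all genes between the lines at 4 months was -0.06 as reported and 0.005 after quantile normalization. With equal totals limma called 74 genes for genotype and 168 for age, against 0 and 1 as reported and 0 or 1 under the other settings; 0 of the 54 were among them in any setting, with lowest adjusted p between 0.377 and 1.00 for genotype and between 0.118 and 0.595 for age. The cause of these shifts was not tested. No paired analysis was possible because each group has 1 library and the labels give no replicate numbers. No library could be left out, since the additive fit would then keep no residual degree of freedom. At the depth of the N101D library of 2 months, genes near 1 FPKM rest on about 24.5 reads per kb of effective length.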
